A study of Homo sapiens with 6 samples.

Results

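The autophagy machinery and its cargo receptors were followed in HCT116 cells, an established line of poorly differentiated human colon cancer, as 37 genes out of 28278 symbols in the count tables. The genes were chosen by symbol for their place in the pathway: the ULK kinase complex, the class III PI3-kinase (PI3K) complex, the proteins that supply membrane, the conjugation system, the ATG8 family, and the cargo receptors with the mitophagy kinase PINK1. The WIPI proteins were placed in the group that supplies membrane. All 37 genes were present in the tables and passed the filter on low counts that left 14002 genes for testing. RNA was sequenced from 3 libraries of cells that stably carried an shRNA against TRIM21 (shTRIM21) and from 3 libraries of cells with a scrambled shRNA (shControl). Both shRNAs were delivered by lentivirus, both groups were selected with puromycin at 5 µg/ml from 36 h after infection for 2 to 3 weeks, and all libraries are labelled day 21. The labels give the genotype as TRIM21 knockdown for the shTRIM21 libraries and WT for the shControl libraries, do not name the shRNA sequence, and call the libraries biological replicates without saying whether they came from separate cultures. The p-values therefore describe the spread among these libraries, part of which may be technical.

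Macroautophagy encloses cytoplasmic cargo in a double membrane, the autophagosome, and delivers it to the lysosome. The ULK complex starts the process, the PI3K complex makes the lipid PI3P on the forming membrane, PI3P-binding WIPI proteins recruit the conjugation system, and that system attaches ubiquitin-like ATG8 proteins to the membrane. Receptors such as SQSTM1 (p62) bind ubiquitylated cargo with one end and ATG8 proteins with the other. TRIM21, the gene targeted here, encodes a ubiquitin ligase that also binds antibodies in the cytosol, and p62 is among the proteins it is known to ubiquitylate. The comparison of the 2 groups asks how gene expression differs between the knockdown and control cells.

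The shTRIM21 libraries held 22656160 to 25842818 counts and the shControl libraries 24646400 to 27123657. TRIM21 itself had 8.82, 8.17 and 6.68 CPM (counts relative to the TMM-scaled library size) in the shTRIM21 libraries, against 11.8, 11.7 and 15.8 CPM in the shControl libraries. The groups did not overlap, and the level in shTRIM21 cells was 0.603 of the control level. The log2 fold change was -0.73 (SE 0.17, adjusted p = 0.0124), and the call was lost without shTRIM21 replicate 3 (-0.62, adjusted p = 0.0734) and when replicate 3 of each group was removed (-0.45, adjusted p = 0.114). Replicate 3 had the lowest share of rRNA counts in each group, 9.55% in shTRIM21 and 6.69% in shControl, and the lowest score on the second principal component (-14.7 in shTRIM21 and -31.8 in shControl). Of all tested genes 602 passed without shTRIM21 replicate 3, 1737 without shControl replicate 3 and 1459 with both removed, against 1272 with all 6 libraries. The summed level of 12 colon epithelial markers was 431 to 467 CPM in shTRIM21 libraries and 439.6 to 449 CPM in shControl libraries. Most of the sum was DSG2, at 282 CPM on average in shTRIM21 and 254 CPM in shControl cells, with overlapping groups. Of the 8 tested markers, KRT8, KRT18, VIL1 and CDH1 were lower in every shTRIM21 library than in any shControl library, and none of them passed. Such a separation was found for 13.9% of all genes tested. EPCAM, CDX2 and CDH17 overlapped. CDX1 was at 0 in all libraries, and KRT20, ESRP1 and GPA33 were too low to test. Fibroblast, endothelial and leukocyte marker lists each summed to at most 0.49 CPM in any library. In bulk RNA, fewer expressing cells and less RNA per cell cannot be told apart.

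In the shTRIM21 cells 6 of the 37 autophagy genes rose and 0 fell (edgeR's quasi-likelihood test, Benjamini-Hochberg adjusted p under 0.05 over all genes tested). The 6 were GABARAP, an ATG8 protein, the cargo receptors SQSTM1 and TAX1BP1, the PI3P effectors WIPI1 and WIPI2, and ATG13, the adaptor of the ULK kinases. The members called were 16.2% of the 37, against 9.08% of all genes tested, and among all genes 4.43% rose and 4.66% fell. At an unadjusted p under 0.05 there were 12 higher and 3 lower members in edgeR's test, a threshold that 22.8% of all genes passed, 11.5% higher and 11.3% lower. With adjustment, DESeq2 called 7 members higher and 1 lower, against 11.4% of all genes (5.18% higher and 6.21% lower). With limma-voom 5 members were higher and 0 lower, against 8.56% of all genes (4.06% higher and 4.49% lower). Positive fold changes were found for 62.2% of the members and 51.8% of all genes. The median log2 fold change was 0.10 for the members and 0.01 for all genes.

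**Figure D1:**
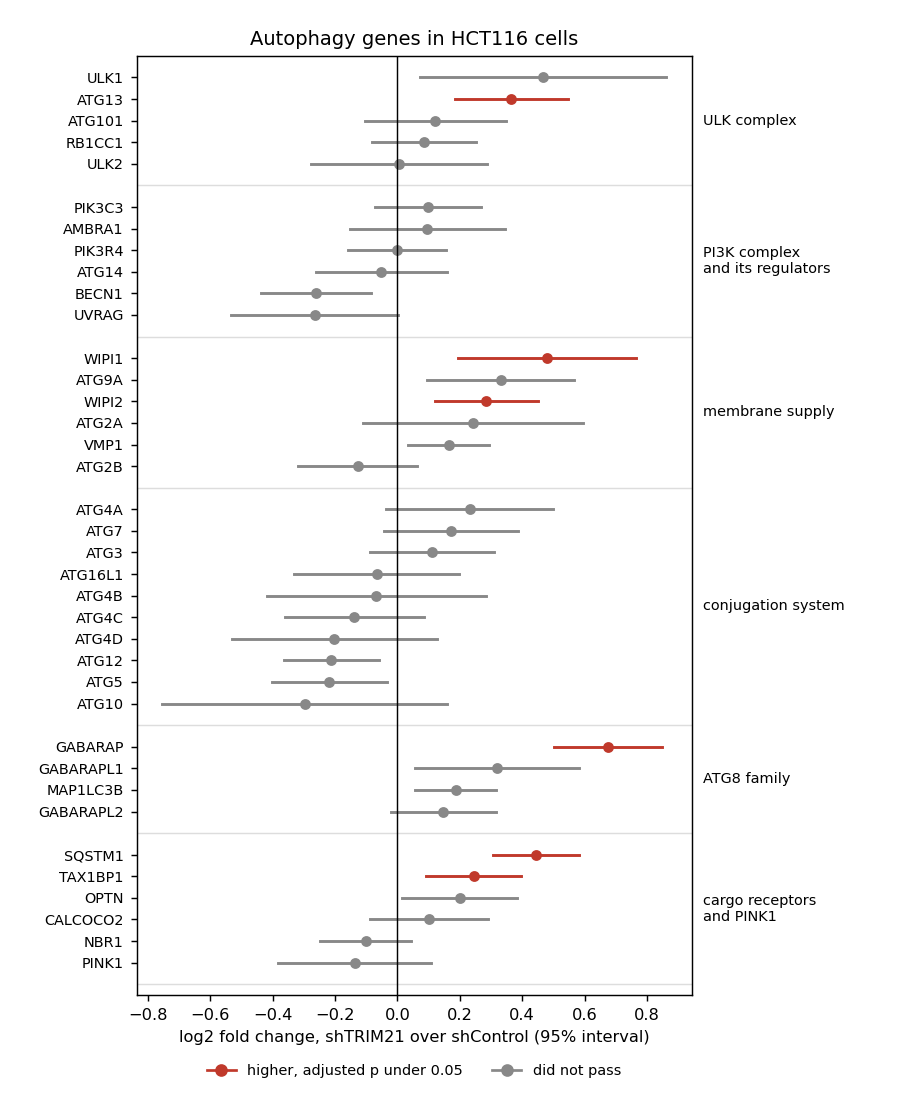
Log2 fold change, shTRIM21 over shControl, of the 37 autophagy genes (points) with 95% intervals (lines) from edgeR's fit, grouped by role, with genes past the threshold in red. The 6 red points lie in the ULK, membrane supply, ATG8 and receptor groups. No gene of the PI3K complex or the conjugation system is red. Of all genes tested 9.08% were called, and in groups this small an absence of calls cannot be told apart from that share.

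Only GABARAP and SQSTM1, of these 6, kept their call with every library left out in turn and under all 16 alternatives. The calls of the other 4 were lost in at least 1 fit with a library left out, as given beside each gene. Without shTRIM21 replicate 3, 2 members were called, against 4.22% of all genes tested in that fit. There were 3 without shTRIM21 replicate 1 (4.86% of all genes) or shControl replicate 2 (5.6%). There were 4 without shTRIM21 replicate 2 (4.7%) or shControl replicate 1 (4.77%), and 8 without shControl replicate 3 (12.2%). The groups did not overlap for 13 members that were higher in shTRIM21 cells (35.1%, against 14.1% of all genes tested) and for 4 that were lower (10.8%, against 13.9%).

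GABARAP, whose protein acts late in autophagosome formation and in fusion with the lysosome, changed most of the 37. It had 74.6, 67.8 and 65.0 CPM in the shTRIM21 libraries, against 41.2, 44.5 and 44.3 CPM in the shControl libraries. All shTRIM21 values were well above the shControl values. This was a log2 fold change of 0.67 (SE 0.08, adjusted p = 3.52e-05), or a 1.596-fold higher level. GABARAP is at chr17:7240014-7242770 (GRCh38, minus strand), and its exons overlap those of no other tested gene.

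The other ATG8 genes were also higher in all shTRIM21 libraries than in any shControl library, but did not pass the test. MAP1LC3B, the LC3 protein most used as an autophagosome marker, had 309, 334 and 336 CPM in shTRIM21 libraries, against 278, 282 and 301 CPM in shControl libraries. Its log2 fold change was 0.19 (SE 0.06, adjusted p = 0.0683), which passed in DESeq2 (adjusted p = 0.0393), in edgeR without shControl replicate 3 (0.23, adjusted p = 0.00654), without replicate 3 of both groups (0.21, adjusted p = 0.0262) and with a GC and length offset (adjusted p = 0.0272). Reads of MAP1LC3B can be split with its near-identical copy MAP1LC3B2, which averaged 4.33 ± 1.01 CPM in shTRIM21 and 2.74 ± 0.345 CPM in shControl cells (SD, n = 3 each). GABARAPL1 averaged 18.7 ± 0.777 CPM in shTRIM21 and 15.01 ± 0.931 CPM in shControl cells, a log2 fold change of 0.32 with a 95% interval of 0.06 to 0.58. GABARAPL2 averaged 61.6 ± 2.40 CPM in shTRIM21 and 55.6 ± 3.30 CPM in shControl cells, with an interval of -0.02 to 0.31.

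Per kilobase of annotated exon, MAP1LC3B was the most abundant of the 37 genes in both groups, at 61.5 ± 2.84 CPM per kb in shTRIM21 and 54.0 ± 2.29 CPM per kb in shControl cells (SD, n = 3 each). SQSTM1 (30.8 ± 1.52), GABARAP (30.5 ± 2.17) and VMP1 (29.8 ± 0.65) followed in shTRIM21 cells at levels that did not differ beyond their spread. In shControl cells VMP1 was at 26.6 ± 1.03 CPM per kb, SQSTM1 at 22.7 ± 1.29, RB1CC1 at 21.9 ± 1.21 and GABARAP at 19.1 ± 0.825. The lowest levels were those of ATG10, the E2-like enzyme for ATG12, in shTRIM21 cells (0.825 ± 0.0645 CPM per kb) and of the kinase gene ULK1 in shControl cells (0.836 ± 0.0553 CPM per kb). The summed level of the 4 ATG8 genes among the 37 leaves out MAP1LC3C and MAP1LC3B2. Of this sum, GABARAP made up 28.3%, 25.3% and 24.8% in the shTRIM21 libraries, against 19.96%, 20.6% and 19.7% in the shControl libraries. This share, examined after the GABARAP values were seen, did not overlap between the groups. The difference in mean share was 6.01 percentage points (exact permutation test, two-sided p = 0.1, the smallest that 3 against 3 allows). Because the share was picked after the GABARAP change was seen, this test adds no evidence beyond that change.

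**Figure D2:**
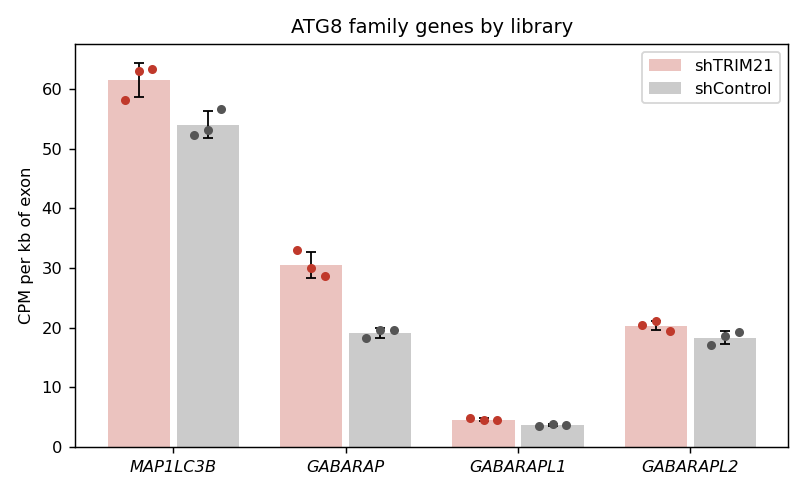
Level of the 4 ATG8 genes in CPM per kb of exon, with each library as a point, the mean as a bar and the SD as an error bar. The shTRIM21 points are above the shControl points in each gene, with the widest gap for GABARAP (30.5 against 19.1 CPM per kb).

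GABARAP has a single RefSeq start, and its promoter is shown because the gene changed most, beside that of WIPI1, the member called with the next largest change. Both windows run from 250 bases before to 50 bases after the start (RefSeq, GRCh38.p14), on the minus strand, at chr17:7242400-7242699 for GABARAP and chr17:68457447-68457746 for WIPI1. Capitals mark the GC box GGGCGG on either strand, found 2 times in GABARAP and 10 times in WIPI1.
GABARAP: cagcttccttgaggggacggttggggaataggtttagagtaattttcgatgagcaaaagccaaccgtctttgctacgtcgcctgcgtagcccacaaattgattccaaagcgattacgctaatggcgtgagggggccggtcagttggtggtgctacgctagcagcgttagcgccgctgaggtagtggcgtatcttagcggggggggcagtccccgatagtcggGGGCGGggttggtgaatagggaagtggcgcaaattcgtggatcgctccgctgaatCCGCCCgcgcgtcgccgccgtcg
WIPI1: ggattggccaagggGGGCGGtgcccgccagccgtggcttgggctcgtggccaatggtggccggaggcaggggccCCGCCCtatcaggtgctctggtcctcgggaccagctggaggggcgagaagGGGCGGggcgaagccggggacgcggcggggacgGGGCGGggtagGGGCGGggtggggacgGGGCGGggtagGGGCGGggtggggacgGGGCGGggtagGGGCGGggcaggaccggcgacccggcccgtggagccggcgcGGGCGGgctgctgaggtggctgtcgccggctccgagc

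RefSeq windows of this length were found for 33 of the 37 genes, 7 of them with several starts. The GC box occurred in 23 of the 33, and in 5 of the 6 genes that rose, against 75.3% of 10513 tested genes with a window. The E-box CACGTG, the core of the element that the lysosome and autophagy regulator TFEB binds, was in the windows of ATG3 and ATG14 and in 0 of the 6 genes that rose, against 12.6% of tested genes. The antioxidant-type core TGACNNNGC was in 3 members, 0 of them among the 6, against 19.1% of tested genes. Among the further autophagy genes described below, 8 that rose had a window, of which 3 held this core and 1 the E-box. With 6 genes, 0 cannot be told apart from such shares, and sites outside the windows were not searched. The E-boxes of ATG3 and ATG14 are in capitals with 12 bases on each side. They lay on the minus strand just upstream of the start, in ATG3 at chr3:112561963-112561992 and in ATG14 at chr14:55411834-55411863 (GRCh38.p14).
ATG3: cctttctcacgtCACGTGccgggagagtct
ATG14: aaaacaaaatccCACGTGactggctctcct

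SQSTM1, the p62 receptor for ubiquitylated cargo and a scaffold that binds the NRF2 inhibitor KEAP1, rose in the shTRIM21 cells. It had 249, 229 and 229 CPM in shTRIM21 libraries, against 179, 179.5 and 162 CPM in shControl libraries. The lowest shTRIM21 value exceeded the highest shControl value. SQSTM1 had a log2 fold change of 0.44 (SE 0.07, adjusted p = 0.000248), a 1.36-fold higher level. Its position is chr5:179806398-179838078 (GRCh38, plus strand).

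TAX1BP1, a receptor with ubiquitin-binding zinc fingers, had 106, 112 and 102 CPM in shTRIM21 libraries, against 83.9, 89.8 and 95.9 CPM in shControl libraries. The groups did not overlap, though shControl replicate 3 came close to the lowest shTRIM21 library. Its log2 fold change of 0.24 (SE 0.07, adjusted p = 0.0422) passed narrowly. It no longer passed without shTRIM21 replicate 1 (0.25, adjusted p = 0.089), 2 (0.21, 0.188) or 3 (0.28, 0.0781), and without shControl replicate 1 (0.20, 0.206) or 2 (0.24, 0.112). It was also lost with RLE size factors (adjusted p = 0.0507) and in limma-voom (adjusted p = 0.0508).

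The remaining receptors did not pass. OPTN, which recruits autophagosomes to damaged mitochondria and bacteria, averaged 44.8 ± 1.13 CPM in shTRIM21 and 39.0 ± 2.32 CPM in shControl cells (SD, n = 3 each), with no overlap and an adjusted p of 0.178. CALCOCO2 (NDP52), a receptor for bacteria and mitochondria, averaged 46.0 ± 2.99 CPM in shTRIM21 and 42.8 ± 3.08 CPM in shControl cells. NBR1, which acts with p62 on ubiquitylated cargo, averaged 111 ± 8.58 CPM in shTRIM21 and 119 ± 1.81 CPM in shControl cells. PINK1, the kinase that marks damaged mitochondria, averaged 23.7 ± 0.991 CPM in shTRIM21 and 26.0 ± 3.53 CPM in shControl cells. The 95% intervals of the log2 fold change were -0.09 to 0.29 for CALCOCO2, -0.25 to 0.05 for NBR1 and -0.38 to 0.11 for PINK1.

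**Figure D3:**
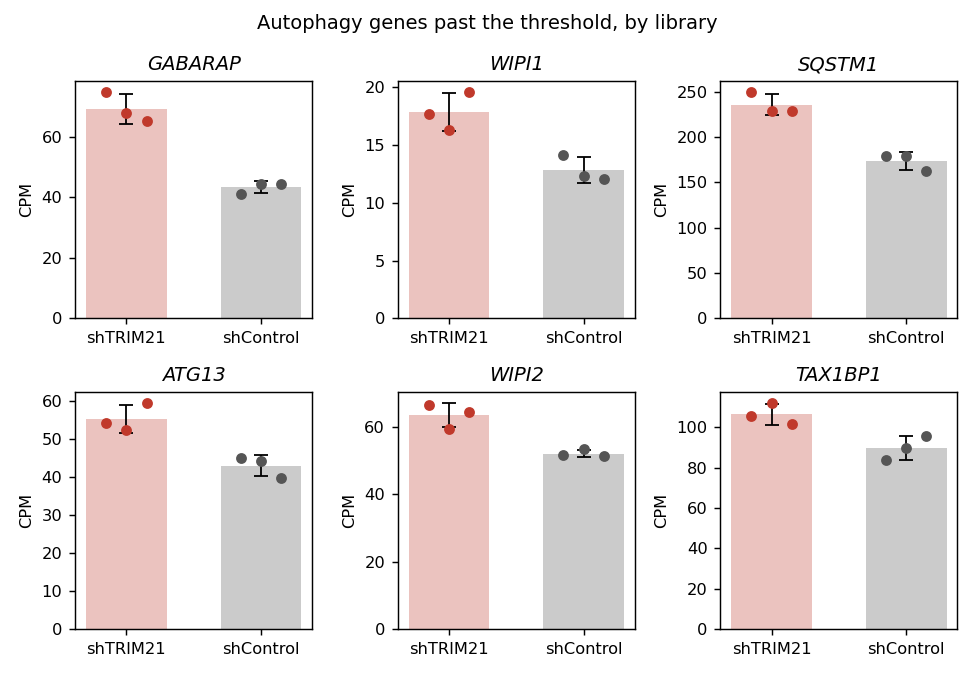
CPM in each library (points) of the 6 autophagy genes past the threshold, with the mean as a bar and the SD as an error bar, shTRIM21 on the left and shControl on the right of each panel. No shControl point reaches the lowest shTRIM21 point in any panel, and the gap relative to the level is widest for GABARAP and narrowest for TAX1BP1.

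In the membrane supply group, which here includes the PI3P effectors WIPI1 and WIPI2, 2 of 6 genes rose, 0 fell and 4 did not pass. The share called was 33.3%, against 9.08% of all genes tested. Both genes that rose were WIPI genes, and none of ATG9A, ATG2A, ATG2B and VMP1 was called. The median log2 fold change of the 6 was 0.26. At an unadjusted p under 0.05, edgeR, DESeq2 and limma-voom each gave 4 higher and 0 lower, and in edgeR 22.8% of all genes passed that threshold. WIPI2, which binds PI3P and recruits ATG16L1, had 66.7, 59.6 and 64.4 CPM in shTRIM21 libraries, against 51.7, 53.5 and 51.3 CPM in shControl libraries. The shControl libraries lay close together, below all shTRIM21 libraries. The log2 fold change was 0.29 (SE 0.08, adjusted p = 0.0292), and the gene no longer passed without shTRIM21 replicate 1 (0.25, adjusted p = 0.108) or 3 (0.28, 0.105), without shControl replicate 1 (0.28, 0.1) or 2 (0.30, 0.0662), and without replicate 3 of both groups (0.27, 0.0549). WIPI1, a relative that also binds PI3P, had 17.7, 16.3 and 19.6 CPM in shTRIM21 libraries, against 14.1, 12.3 and 12.03 CPM in shControl libraries. Again the groups did not overlap.

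The log2 fold change of WIPI1 was 0.48 (SE 0.14, adjusted p = 0.033). WIPI1 no longer passed without shTRIM21 replicate 1 (0.49, adjusted p = 0.0779), 2 (0.54, 0.0589) or 3 (0.41, 0.141), without shControl replicate 2 (0.45, 0.107), and without replicate 3 of both groups (0.37, 0.13). WIPI1 shares 828 bases of exon with ARSG, a lysosomal sulfatase gene on the opposite strand, and ARSG also rose (log2 fold change 0.62, SE 0.13, adjusted p = 0.00613). The strand setting of the counting is not given in the sources used here, so reads in the shared bases could not be assigned to one gene. This holds for 14 of the 37 members, all with the other gene on the opposite strand, among them ATG13 (329 bases with HARBI1) and TAX1BP1 (415 bases with JAZF1), whose partners did not pass.

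ATG9A, the scramblase whose vesicles seed the membrane, averaged 38.4 ± 2.71 CPM in shTRIM21 and 30.6 ± 4.76 CPM in shControl cells (SD, n = 3 each). Its groups did not overlap, but its log2 fold change of 0.33 (adjusted p = 0.0752) passed with no filter on low counts (adjusted p = 0.029) and with the GC and length offset (0.0372). VMP1, an endoplasmic reticulum protein needed for membrane growth, had 205, 211 and 202 CPM in shTRIM21 libraries, against 180.0, 180.0 and 192 CPM in shControl libraries. Its log2 fold change was 0.16 (SE 0.06, adjusted p = 0.108). It passed without shControl replicate 3 (0.20, adjusted p = 0.0168), without replicate 3 of both groups (0.22, 0.0246), and with the GC and length offset (0.22, 0.00189). The lipid transfer proteins ATG2A and ATG2B had log2 fold changes of 0.24 and -0.13, with overlapping groups. ATG2B shares 419 bases of exon with GSKIP, on the opposite strand, which rose (log2 fold change 0.98, adjusted p = 1.76e-05).

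In the ULK complex 1 of 5 genes rose (20%, against 9.08% of all genes tested), 0 fell and 4 were not called. The median log2 fold change was 0.12. With an unadjusted p under 0.05, edgeR, DESeq2 and limma-voom each gave 2 higher and 0 lower, and in edgeR 22.8% of all genes passed. ATG13 had 54.3, 52.4 and 59.6 CPM in shTRIM21 libraries, against 45.1, 44.2 and 39.8 CPM in shControl libraries. The groups were separate, with the largest distance between the replicates numbered 3. The log2 fold change was 0.37 (SE 0.09, adjusted p = 0.0127), and the call was lost without shTRIM21 replicate 3 (0.31, adjusted p = 0.0893) and on removing replicate 3 from each group (0.27, adjusted p = 0.0676). The kinase ULK1 had 10.4, 8.67 and 7.26 CPM in shTRIM21 libraries, against 6.62, 6.57 and 5.87 CPM in shControl libraries. Its groups did not overlap, but at this low level its interval ran from 0.07 to 0.86 and its adjusted p was 0.137. ULK2, the related kinase, averaged 16.1 ± 1.89 CPM in shTRIM21 and 16.0 ± 0.998 CPM in shControl cells, an interval of -0.28 to 0.29. RB1CC1 (FIP200), the scaffold subunit, and ATG101, a further subunit, had log2 fold changes of 0.09 and 0.12 with overlapping groups.

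The PI3K complex and its regulators had 0 of 6 genes called by edgeR or limma-voom, against 9.08% and 8.56% of all genes tested. The median log2 fold change was -0.03. With an unadjusted p under 0.05, each gave 1 gene lower, and in edgeR 22.8% of all genes passed. BECN1 (Beclin 1), the regulatory subunit, had 56.4, 59.0 and 54.3 CPM in shTRIM21 libraries, against 61.8, 66.4 and 74.8 CPM in shControl libraries. All shTRIM21 libraries lay below all shControl libraries, and the log2 fold change was -0.26 (SE 0.08, adjusted p = 0.0609). BECN1 was called lower by DESeq2 (adjusted p = 0.0371), and in edgeR with no filter on low counts (0.0395), without rRNA genes (0.0465) and with the GC and length offset (0.0277). The exons of BECN1 overlap those of CNTD1 (795 bases) and PSME3 (300 bases), both on the opposite strand. CNTD1 had a log2 fold change of -0.29 (SE 0.11, adjusted p = 0.0985) and PSME3 of -0.03 (SE 0.06, adjusted p = 0.816). UVRAG, which replaces ATG14 in the endosomal form of the complex, averaged 16.7 ± 0.929 CPM in shTRIM21 and 20.03 ± 2.32 CPM in shControl cells (SD, n = 3 each), with an interval of -0.53 to 0.00. For the lipid kinase PIK3C3 (VPS34), the pseudokinase PIK3R4 (VPS15), the autophagy-specific subunit ATG14 and the regulator AMBRA1, log2 fold changes ran from -0.05 to 0.10 and the groups overlapped. PIK3C3 passed with the GC and length offset (0.20, adjusted p = 0.045, against 0.10 without it).

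The conjugation system had 0 of 10 genes called by edgeR, DESeq2 or limma-voom, against 9.08%, 11.4% and 8.56% of all genes tested. With an unadjusted p under 0.05, each gave 2 lower and 0 higher, and in edgeR 22.8% of all genes passed. Its median log2 fold change was -0.10, with 3 positive and 7 negative values. ATG12, a ubiquitin-like protein, had 91.3, 85.5 and 99.2 CPM in shTRIM21 libraries, against 107, 102 and 111 CPM in shControl libraries. ATG5, to which ATG12 is joined, had 49.3, 50.2 and 49.2 CPM in shTRIM21 libraries, against 54.5, 53.5 and 64.8 CPM in shControl libraries. Both genes were lower in every shTRIM21 library than in any shControl library. The log2 fold changes were -0.21 for ATG12 (SE 0.07, adjusted p = 0.0797) and -0.22 for ATG5 (SE 0.09, adjusted p = 0.137). ATG12 shares 378 bases of exon with AP3S1, on the opposite strand, which rose (log2 fold change 0.34, SE 0.09, adjusted p = 0.0189).

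The E1-like enzyme ATG7 and the E2-like enzyme ATG3 had log2 fold changes of 0.17 and 0.11. ATG10 and ATG16L1, the partner of the ATG12 conjugate, had -0.30 and -0.07. The ATG4 proteases, which process ATG8 proteins, ran from -0.20 (ATG4D) to 0.23 (ATG4A), with ATG4B at -0.07 and ATG4C at -0.14. All of these groups overlapped, and the adjusted p was at least 0.296 for each.

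A pair of 7-base sequences in 3′ UTRs, AGTGGAA and GTGTCAC, had been picked from the fold changes of these same libraries, so their presence here is a description and not independent evidence. GTGTCAC was in the longest annotated 3′ UTR of 5 of the 37 genes (13.5%, against 10.9% of 11881 tested genes with a 3′ UTR), namely ULK1, ATG2B, MAP1LC3B, GABARAP and GABARAPL1. Those 5 had a median log2 fold change of 0.32, against 0.10 for the 37 members and 0.04 for all genes with the 7-mer. The ATG2B site is not shown, and that gene was lower, at -0.13, with overlapping groups. Sites picked by outcome show no link between the 7-mer and the fold changes. The sites in the ATG8 genes and ULK1 are shown in capitals, with up to 11 bases on each side. These sites were chosen because their genes were higher in every shTRIM21 library than in any shControl library. That held for 35.1% of the members and 14.1% of all genes tested.
GABARAP: attgtcagtctGTGTCACatccagtgatt
GABARAPL1: attagtattacGTGTCACataatggtaaa
MAP1LC3B, first site: taaacgtgcagGTGTCACcatcacaatat
MAP1LC3B, second site: gcagtgtaccaGTGTCACtctggagtaca
ULK1: ttgttgggctgGTGTCACcact

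AGTGGAA was in the 3′ UTR of 11 members (29.7%, against 18.7% of tested genes), among them ATG5, ATG10, ATG16L1, ATG4A and ATG4D of the conjugation system. Their median log2 fold change was -0.07, against -0.06 for all genes with the 7-mer, with 5 positive and 6 negative values. TAX1BP1, which rose, holds it as well.

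Of 88 further autophagy genes in 5 lists, 80 were tested, 11 rose and 2 fell, and the share called was 16.2%, against 9.08% of all genes. Their median log2 fold change was 0.07. In the list of other core genes 1 of 10 tested genes rose and 0 fell (10% called, against 9.08% of all genes). By DESeq2 1 rose and 1 fell (NRBF2, a subunit of the PI3K complex, at -0.35, adjusted p = 0.034), and by limma-voom 1 rose and 0 fell. With an unadjusted p under 0.05, edgeR gave 2 higher and 1 lower, and 22.8% of all genes passed. ZFYVE1 (DFCP1), a PI3P-binding protein of the membrane sites where autophagosomes form, had 20.4, 22.9 and 19.4 CPM in shTRIM21 libraries, against 13.3, 15.4 and 13.2 CPM in shControl libraries. The groups did not overlap, and the log2 fold change was 0.58 (SE 0.13, adjusted p = 0.0086), a call lost without shTRIM21 replicate 2 (0.51, adjusted p = 0.0621). The most abundant genes of this list were TMEM41B, a scramblase that works with VMP1, and WDR45B, a WIPI relative, with log2 fold changes of -0.14 and 0.04 that did not pass.

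In the list of other receptors and their kinase TBK1, 2 of 17 tested genes were higher, both receptors, and 2 were lower, the receptor SEC62 and TBK1. Together these were 23.5% of the tested genes of the list, against 9.08% of all genes tested. BNIP3L (NIX), a mitophagy receptor of the outer mitochondrial membrane, had 47.2, 47.8 and 50.8 CPM in shTRIM21 libraries, against 33.0, 29.3 and 35.8 CPM in shControl libraries. The groups were far apart, with a log2 fold change of 0.57 (SE 0.09, adjusted p = 0.000742) that held with each library left out. CCPG1, a receptor for the endoplasmic reticulum, rose by 0.39 on the log2 scale (SE 0.09, adjusted p = 0.0124), a call lost without shTRIM21 replicate 2 (0.35, adjusted p = 0.0729), shControl replicate 1 (0.33, 0.0639) or shControl replicate 2 (0.31, 0.0667). TBK1, the kinase that phosphorylates OPTN and p62, averaged 71.7 ± 4.71 CPM in shTRIM21 and 85.7 ± 6.89 CPM in shControl cells (SD, n = 3 each). SEC62, a receptor for endoplasmic reticulum after stress, averaged 228 ± 18.4 CPM in shTRIM21 and 269 ± 22.1 CPM in shControl cells. TBK1 (log2 fold change -0.26, SE 0.08) and SEC62 (-0.24, SE 0.07) each fell with an adjusted p of 0.0478.

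Both of these calls were narrow. The SEC62 call was lost with each of the 6 libraries left out (adjusted p 0.0576 to 0.205). The TBK1 call was lost without any 1 of 5 libraries (adjusted p up to 0.186) and held in the remaining case, without shControl replicate 2 (adjusted p = 0.0316). NCOA4, the ferritin receptor and the most abundant gene of the list at 349.8 ± 6.74 CPM in shTRIM21 and 325 ± 7.86 CPM in shControl cells (SD, n = 3 each), did not pass (adjusted p = 0.29).

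Of 16 genes for fusion with lysosomes 2 rose, 0 fell and 14 were not called, with 12.5% called against 9.08% of all genes tested. DESeq2 gave 3 higher and 0 lower and limma-voom 1 higher and 0 lower, against 11.4% and 8.56% of all genes. At an unadjusted p under 0.05, edgeR gave 3 higher and 0 lower, a threshold that 22.8% of all genes passed. RAB7A, the small GTPase of late endosomes, had 299, 315 and 309 CPM in shTRIM21 libraries, against 254, 267 and 264 CPM in shControl libraries. The groups did not overlap, and the log2 fold change was 0.23 (SE 0.06, adjusted p = 0.0193), which no longer passed without shTRIM21 replicate 2 (0.22, adjusted p = 0.0985) or 3 (0.23, 0.0897) or shControl replicate 1 (0.21, 0.11). VPS18, a core subunit of the HOPS tethering complex, rose by 0.35 (SE 0.11, adjusted p = 0.0468) on the log2 scale. The call held with 1 of the 6 libraries left out (shTRIM21 replicate 2) and otherwise had an adjusted p of 0.0543 to 0.186. It was also lost in limma-voom (adjusted p = 0.0505), without rRNA genes (0.0534) and without replicate 3 of both groups (0.226). STX17, the syntaxin of completed autophagosomes, averaged 88.5 ± 2.80 CPM in shTRIM21 and 89.9 ± 1.67 CPM in shControl cells (adjusted p = 0.885).

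In the list of mTORC1 and AMPK genes, the nutrient and energy sensors that restrain or start autophagy, 6 of 28 tested genes rose and 0 fell. DESeq2 called 6 higher and 1 lower, limma-voom 5 higher and 0 lower, and at an unadjusted p under 0.05 edgeR gave 11 higher and 1 lower. The 6 genes were 21.4% of the list, against 9.08% of all genes tested, and the unadjusted threshold was passed by 22.8% of all genes. RRAGC, a Rag GTPase that brings mTORC1 to the lysosome, had 44.0, 42.6 and 46.2 CPM in shTRIM21 libraries, against 30.5, 30.5 and 31.4 CPM in shControl libraries. Its partner RRAGA had 68.0, 66.2 and 72.0 CPM in shTRIM21 libraries, against 54.8, 50.9 and 49.0 CPM in shControl libraries. Both rose, by 0.52 (SE 0.09, adjusted p = 0.000958) and 0.41 (SE 0.08, adjusted p = 0.00276) on the log2 scale, and both calls held with each library left out.

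DDIT4, an inhibitor of mTORC1, averaged 4.91 ± 0.958 CPM in shTRIM21 and 1.86 ± 0.727 CPM in shControl cells (SD, n = 3 each). It rose by 1.41 (SE 0.32, adjusted p = 0.00908) on the log2 scale, a call lost without shTRIM21 replicate 2 (1.24, adjusted p = 0.0677). SESN1, a leucine sensor of the sestrin family, rose by 0.44 (SE 0.14, adjusted p = 0.0499). The call held with 1 of the 6 libraries left out (shControl replicate 3, adjusted p = 0.00654) and otherwise had an adjusted p of 0.0743 to 0.219. It was also lost with RLE size factors, in limma-voom, without rRNA genes and without the 20 most abundant genes. DEPTOR, another mTORC1 inhibitor, had 0.275, 0.539 and 0.502 CPM in shTRIM21 libraries, against 1.55, 2.61 and 0.641 CPM in shControl libraries. Its groups did not overlap, and its log2 fold change of -1.86 (SE 0.58, adjusted p = 0.0511), the largest in size of the list, was called lower by DESeq2 (adjusted p = 0.0247) and not by edgeR. The other 2 genes that rose were LAMTOR5, a subunit of the Ragulator complex (0.34, adjusted p = 0.0329), and FNIP2, a partner of folliculin (0.32, adjusted p = 0.0471). The LAMTOR5 call held without shControl replicate 3 (adjusted p = 0.00783) and was lost without any other library (adjusted p 0.0729 to 0.172). The FNIP2 call held without shControl replicate 1 (adjusted p = 0.0364) and was lost without any other library (adjusted p 0.0903 to 0.155), with RLE size factors (0.0513), without rRNA genes (0.0556), without the 20 most abundant genes (0.0513) and without replicate 3 of both groups (0.0858). The most abundant genes of the list, RHEB and the AMPK subunit PRKAA1, had log2 fold changes of 0.07 and 0.00.

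Transcription factors of autophagy genes had 0 of 9 tested members called by edgeR, DESeq2 or limma-voom, against 9.08%, 11.4% and 8.56% of all genes tested. With an unadjusted p under 0.05, 1 was higher and 1 lower by each, and in edgeR 22.8% of all genes passed. TFEB was low, at 1.34 ± 0.398 CPM in shTRIM21 and 0.88 ± 0.340 CPM in shControl cells (SD, n = 3 each). Its relative TFE3 averaged 55.1 ± 5.35 CPM in shTRIM21 and 54.7 ± 5.28 CPM in shControl cells. NFE2L2 (NRF2), which p62 activates through KEAP1, and FOXO3 were the most abundant of the list, with log2 fold changes of -0.18 (adjusted p = 0.17) and 0.22 (adjusted p = 0.0864).

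**Figure D4:**
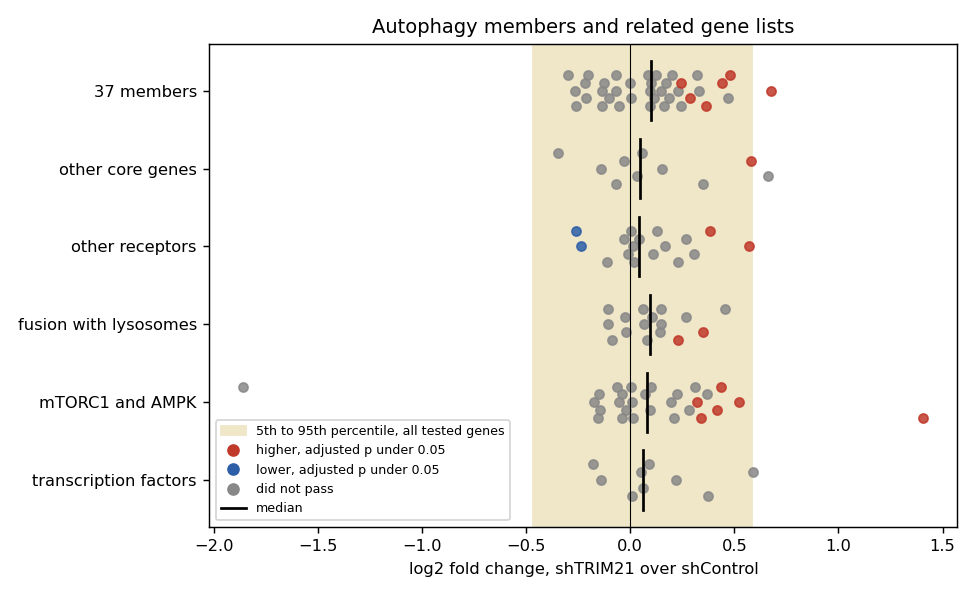
Log2 fold change, shTRIM21 over shControl, of tested genes (points) in the 37 members and the 5 related lists, with each list's median as a black line and the 5th to 95th percentile of all tested genes (-0.46 to 0.58) shaded. Most points lie inside the shaded range, all list medians lie between 0.04 and 0.10, and the called genes, in red and blue, are mostly on the higher side.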

How the data were processed

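The values deposited by the authors are whole-number counts for each gene symbol, not normalized, from 6 libraries of rRNA-depleted total RNA. The hg38 genome, limma 3.52.2, edgeR 3.38.1 and TopHat2 2.1.1 were used, per the submitters' processing notes. How reads were counted (tool, annotation, strand) is not given in the sources used here. Of 28278 symbols, 9276 were at 0 in all libraries.

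Tests of the counts used R 4.3.3 and edgeR 4.0.16: default filter on low counts, TMM scaling, quasi-likelihood test without other terms, and Benjamini-Hochberg adjustment over 14002 genes with a threshold of 0.05. The SE is the log2 fold change divided by the square root of F, and intervals are 95%. CPM is relative to TMM-scaled library size, and CPM per kb divides by the union of GENCODE 29 exons, which can exceed the length of the transcripts in use. Positions are from GENCODE 29 (GRCh38), promoters from RefSeq. DESeq2 1.42.0 and limma-voom (limma 3.58.1) were among 16 alternatives, and a GC and length offset (13191 genes with both values) was added after the data were seen. The fits were tested on simulated data. Replicate numbers were not taken as pairs, and the fit is unpaired.

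The members and lists were chosen with earlier results of these data known. The text accounts for every member, gives library values for those past the threshold, and names from each related list up to 4 called genes per direction and the 2 most abundant. Members discussed with library values despite not passing were chosen after their values were seen.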

Additional observations from a re-analysis of the deposited data

How the results depend on the processing

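The autophagy genes called were 2 to 8 in fits without 1 library, where 4.22% to 12.2% of all genes tested were called. They were 10 with the replicate block (12.1% of all genes) and 11 with a GC and length offset (13.9%), against 6 (9.08%). Of these 2 to 8 were higher without 1 library and 10 with the offset. Those called lower, 0 in the fit reported, numbered 1 with no filter on low counts, 1 in DESeq2, 1 without rRNA genes, 1 with the offset and 2 with the replicate block. The related genes called were 4 to 12 in fits without 1 library and 22 with the offset, against 13. The genes called among all tested were 602 to 1737 in fits without 1 library, against 1272. For TRIM21 the log2 fold change lay between -0.82 and -0.565 in those fits and was -0.454 without replicate 3 of both groups. The cause was not tested.

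All 6 genes that rose kept their direction under the 16 alternatives. Genes near 0 that did not pass changed sign, with an adjusted p of at least 0.771 each. ULK2 was at -0.001 with RLE size factors, -0.001 in DESeq2, -0.005 without rRNA genes and -0.07 to 0.094 in fits without 1 library. RB1CC1 ran from -0.01 to 0.17 in those fits. ATG101 was at -0.012 without replicate 3 of both groups and -0.027 with the offset. PIK3R4 ran from -0.048 to 0.044 in fits without 1 library and was at 0.036 with the offset. In those fits ATG14 ran from -0.126 to 0.03, AMBRA1 from -0.024 to 0.19, ATG16L1 from -0.168 to 0.037 and ATG4B from -0.275 to 0.094. Without replicate 3 of both groups AMBRA1 was at -0.034 and ATG4B at 0.052.

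Deviations from the group mean correlated at 0.096, -0.012 and 0.091 between libraries numbered 1, 2 and 3, so the numbers were not taken as pairs. Weak correlations of this kind do not show that the numbers carry no batch. Scores on the second principal component fell from number 1 to 3 in both groups (22.9, 5.5 and -14.7 in shTRIM21, 12.2, 5.9 and -31.8 in shControl). Whether libraries of the same number shared a batch was not tested. With the replicate number as a block, 1699 of all genes were called, and BECN1, ATG9A, ATG12 and MAP1LC3B passed (adjusted p 0.0375, 0.0239, 0.0426 and 0.041) beside the 6 genes that rose. With 22656160 to 27123657 counts per library, genes under about 10 CPM, such as ULK1 and ATG10, had the widest intervals.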
